A study of Mus musculus with 6 samples.

Results

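Histone genes, replication-dependent and variant, were read from the polyadenylated RNA of mouse round spermatids, haploid cells that have finished meiosis and have yet to elongate. The gene symbol chose the members: it begins with H1, H2a, H2b, H3 or H4 followed by a lower-case letter, or it is Hils1. This took 69 of the 22770 rows of the count table. The rule leaves out 7 histone rows spelled otherwise, Macroh2a1 to Macroh2a3 and 4 under Hist1h symbols, so counts, sums and shares below are over the 69 unless these are named. A letter c before the number marked 26 of them as replication-dependent, and the other 43 were taken as variants. The study compared 3 libraries of the genotype labelled Eif5a SKO (SKO below, an abbreviation that the labels do not expand) with 3 wild-type (WT) libraries. Both groups were round spermatids sorted by fluorescence from testes at postnatal day 28, mostly at step 8, and made into cDNA by Smart-seq2, which copies polyadenylated RNA and amplifies it by PCR without molecular identifiers. The strain, what drives the deletion, the number of cells in a library and whether replicates came from separate animals are not stated by the labels used here. The p-values therefore measure the spread between these libraries.

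Replication-dependent histone genes lie in clusters and supply core histones to replicating DNA. Their mRNAs normally end in a conserved stem-loop with no poly(A) tail. Variant histone genes lie mostly outside the clusters, are used outside S phase and make polyadenylated mRNAs. Spermatids use testis types of linker histone, H2A, H2B and H3 while they take most nucleosomes apart and pass to transition proteins and protamines. Among these are HILS1, a spermatid linker protein, and the short H2A variants H2A.B and H2A.L, which are known to loosen nucleosomes.

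Library totals ran from 52055193 to 60970931 counts, with 21177 to 22006 genes detected. Eif5a, the translation factor gene named in the genotype, had 6.88, 6.27 and 5.35 CPM in the SKO libraries and 701, 616 and 662 CPM in the WT libraries, so each library carried the level of its label. CPM is a count scaled to the effective library size after TMM normalisation. SKO replicate 3 stood apart from SKO replicates 1 and 2 on the second principal component. The 20 round spermatid markers were all counted, at a summed 16412 to 18720 CPM in SKO and 11376 to 12394 CPM in WT. The median log2 fold change of all genes was 0.01 under TMM, with 4185 genes higher and 4127 lower, and -0.23 when only library totals were used, with 2831 higher and 5666 lower. Directions below are relative to the TMM median. Each library is a bulk sample, in which fewer cells of a type and less RNA per cell cannot be told apart.

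Of the 69 histone genes, 55 passed the filter on low counts. At an adjusted p under 0.05 (quasi-likelihood test of edgeR, Benjamini-Hochberg over the 19776 genes tested), 25 of the 55 were higher and 3 lower in SKO, and 27 were not called. The 3 lower were the antisense H3f3aos and the pseudogenes H2bu1-ps and H1f11-ps. Over all genes tested, 21.2% were higher and 20.9% lower. The 3 SKO values lay wholly above the 3 WT values for 29 members and wholly below for 4, against 27.3% and 28.3% of all genes, and 55.6% of all genes in either direction. The variants gave 21 of 39 higher and 3 lower, with a median log2 fold change of 0.86, and the replication-dependent genes 4 of 16 higher, with a median of 0.60. Among the variants, the autosomal ones gave 9 of 23 higher and 3 lower, with a median of 0.41. The X-linked ones gave 12 of 16 higher, with a median of 1.74, beside 63.1% of X-linked genes that are not members. The 14 members below the filter were 10 replication-dependent and 4 variant genes, none with more than 16 counts in a library.

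**Figure D1:**
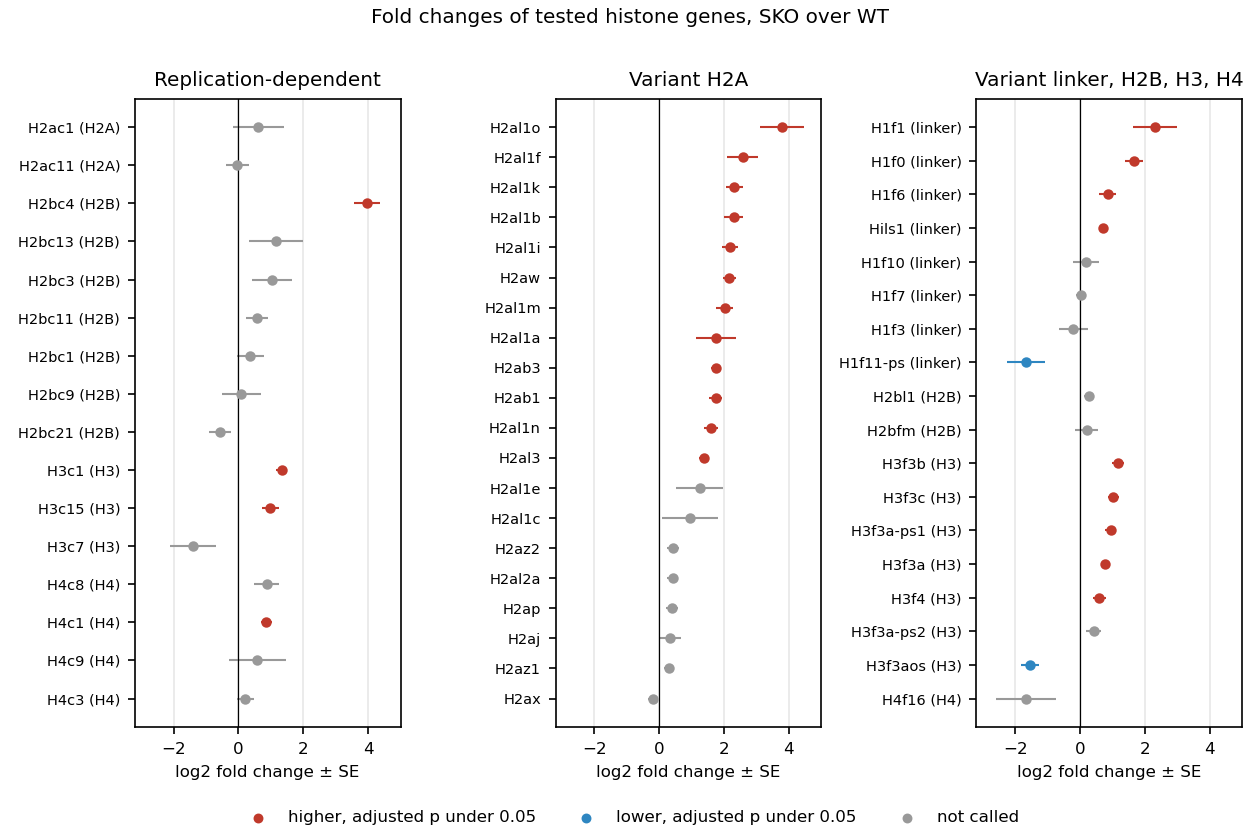
Log2 fold change of each tested histone gene, SKO over WT (horizontal axis), with its SE from edgeR, in 3 panels for replication-dependent genes, variant H2A genes and the other variants. Points are coloured by call, and H2bu1-ps, which is close to 0 counts in SKO, is left out. Most called members lie right of 0, with 12 of 20 variant H2A genes called higher. H2aw is the only autosomal gene among those called H2A variants. Of all genes tested 21.2% were higher, and of X-linked genes that are not members 63.1%.

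Summed over their members alone, all 5 histone classes were higher in every SKO library than in any WT library on the TMM scale. H3 genes reached 2505 ± 235 CPM in SKO and 1332 ± 132 CPM in WT (SD, n = 3 each). Linker genes reached 1680 ± 248 CPM in SKO and 1082 ± 49.9 CPM in WT, and H2A genes 801 ± 91 CPM in SKO and 545 ± 43.6 CPM in WT. H4 genes stood at 81.0 ± 14.2 CPM in SKO and 46.7 ± 4.33 CPM in WT. The H2B sums, 132 ± 9.52 CPM in SKO and 109 ± 12.9 CPM in WT, were the closest, and their libraries overlapped under library totals alone (122 ± 13.6 CPM in SKO and 118 ± 13 CPM in WT). With the rows left out by the rule, the H2B sum became 409 ± 70.9 CPM in SKO and 231 ± 19.6 CPM in WT.

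Per kilobase of transcript, on the longest annotated model among those with the longest coding sequence, Hils1 was the most abundant member, with a mean of 1731 CPM per kb in SKO and 1049 CPM per kb in WT. H3f3a followed with 536 CPM per kb in SKO and 313 CPM per kb in WT. H2az1 had 398 CPM per kb in SKO and 325 CPM per kb in WT, and H3f3b had 366 CPM per kb in SKO and 162 CPM per kb in WT. In SKO the libraries of H2az1 and H3f3b overlapped, and in WT those of H3f3a and H2az1. Next in SKO stood H2bl1 with 252 CPM per kb in SKO and 209 CPM per kb in WT, and H2ab3 with 178 CPM per kb in SKO and 53.2 CPM per kb in WT. This order is that of the SKO means. The H2ab3 model, of 348 bases, ends at the stop codon, while RefSeq gives the gene a longer span (chrX:120312582-120313226). Its value per kb may therefore be too high, and its place in the order is uncertain. In WT the mean of H2az1 was above that of H3f3a, that of H2bl1 above H3f3b, and those of H1f7, H2ap, H4c1 and H2al2a above H2ab3. H4c1 was the most abundant replication-dependent member, at 134 CPM per kb in SKO and 74.0 CPM per kb in WT, overlapping in SKO with H1f7, at 132 CPM per kb in SKO and 129 CPM per kb in WT.

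**Figure D2:**
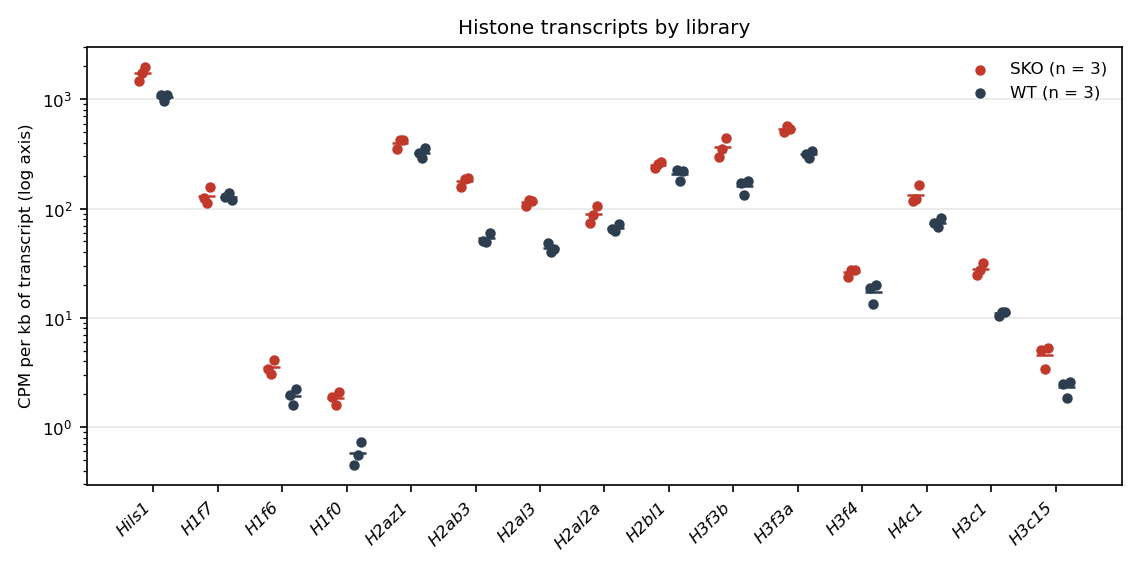
Level of 15 histone genes in CPM per kb of transcript (vertical log axis) in each library, with the 3 SKO libraries (red) left of the 3 WT libraries (dark) and a bar at each mean. Hils1 and H3f3a lie wholly higher in SKO, while the groups of H1f7 overlap.

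Among linker histones, Hils1 carried most of the counts and was higher in SKO. Hils1, which encodes the spermatid linker protein and lies at chr11:94967593-94968456 (GRCm38, plus strand), had 1259, 1517 and 1710 CPM in SKO, against 938, 834 and 947 CPM in WT. The groups did not overlap, and its log2 fold change was 0.72 ± 0.14 (SE, edgeR adjusted p = 0.00299). Its share of the counts of the linker members was 87.7% to 90.7% in SKO and 81.4% to 85.3% in WT. H1f7, which encodes the other late spermatid linker histone, had 164, 147 and 207 CPM in SKO, against 166, 184 and 155 CPM in WT, with overlapping groups. Its log2 fold change was 0.04 ± 0.15 (edgeR adjusted p = 0.866), with a sign that turned under library totals alone (-0.19).

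At low levels, 3 more linker genes were called higher and 1 lower. H1f0, the linker histone of resting and differentiated cells, had 3.84, 3.28 and 4.30 CPM in SKO, against 0.920, 1.14 and 1.51 CPM in WT, and rose by 1.68 ± 0.28 in log2 (edgeR adjusted p = 0.00121). H1f6, the testis linker histone that appears in meiosis, had 3.08, 2.80 and 3.78 CPM in SKO, against 1.81, 1.47 and 2.05 CPM in WT (log2 fold change 0.86 ± 0.26, edgeR adjusted p = 0.0232). The groups of both genes were apart, but the H1f6 call was lost without SKO replicate 3, WT replicate 1 or WT replicate 2 (edgeR adjusted p 0.057 to 0.0864) and under library totals. H1f1, a linker gene of the chromosome 13 histone cluster, stayed under 1 CPM in every library (0.475, 0.260 and 0.634 CPM in SKO, against 0.0852, 0.102 and 0.0801 CPM in WT). Its call (edgeR adjusted p = 0.0198) was lost on leaving out any 1 library other than SKO replicate 2, with edgeR adjusted p from 0.059 to 0.0758. The pseudogene H1f11-ps was lower in SKO, at 0.248, 0.148 and 0.119 CPM against 0.596, 0.648 and 0.401 CPM in WT (edgeR adjusted p = 0.0454), and leaving out any 1 library ended that call (edgeR adjusted p 0.0504 to 0.144). H1f3 and H1f10 were not called.

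The short X-linked H2A variant genes H2ab1, H2ab3 and H2al3 were higher in SKO. H2ab3, one of the genes for H2A.B, lies at chrX:120312748-120313095 (minus strand) and had 54.9, 64.5 and 66.0 CPM in SKO, against 17.4, 17.4 and 20.8 CPM in WT. The groups were far apart, and the log2 fold change was 1.74 ± 0.15 (edgeR adjusted p = 5.65e-05). The near copy H2ab1 had 19.7, 23.3 and 26.6 CPM in SKO, against 7.27, 5.73 and 7.85 CPM in WT, and also gave 1.74 ± 0.19 (edgeR adjusted p = 0.000138). Together they summed to 85 ± 9.36 CPM in SKO and 25.5 ± 2.89 CPM in WT (SD, n = 3 each). H2al3, which encodes H2A.L.3, had 58.8, 65.8 and 64.9 CPM in SKO, against 26.9, 22.1 and 23.8 CPM in WT, which is 1.38 ± 0.14 in log2 (edgeR adjusted p = 0.000111).

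The H2al1 family, X-linked copies that encode H2A.L.1, was higher in SKO as a whole. Its 11 members summed to 41.9, 41.1 and 64.3 CPM in SKO, against 12.4, 11.4 and 12.8 CPM in WT, which is 4.01-fold by the means, with SKO replicate 3 highest. Of 10 members tested, 8 were called higher, with a median log2 fold change of 2.10 over the 10. Of other X-linked genes, 63.1% were called higher, with a median of 1.29. H2al1n had 11, 12.7 and 17.5 CPM in SKO, against 5.09, 4.09 and 4.41 CPM in WT (log2 fold change 1.60 ± 0.21, edgeR adjusted p = 0.000409). Every 100-base word of its annotated transcript occurs in no other gene, so reads of that length can be placed. H2al1o, also without shared words, had 1.09, 1.08 and 0.911 CPM in SKO, against 0.0341, 0.153 and 0.0321 CPM in WT (log2 fold change 3.78 ± 0.68, edgeR adjusted p = 0.00196). The other called copies, H2al1b, H2al1i, H2al1m, H2al1k, H2al1f and H2al1a, gave fold changes from 1.75 to 2.57 on the log2 scale. H2al1i and H2al1f hold no 100-base word of their own, so their reads cannot be told from those of other copies and the family sum is the firmer value. The call of H2al1a, at 0.516, 0.538 and 1.17 CPM in SKO and 0.273, 0.273 and 0.112 CPM in WT, was lost on leaving out any 1 library (edgeR adjusted p 0.0546 to 0.174).

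**Figure D3:**
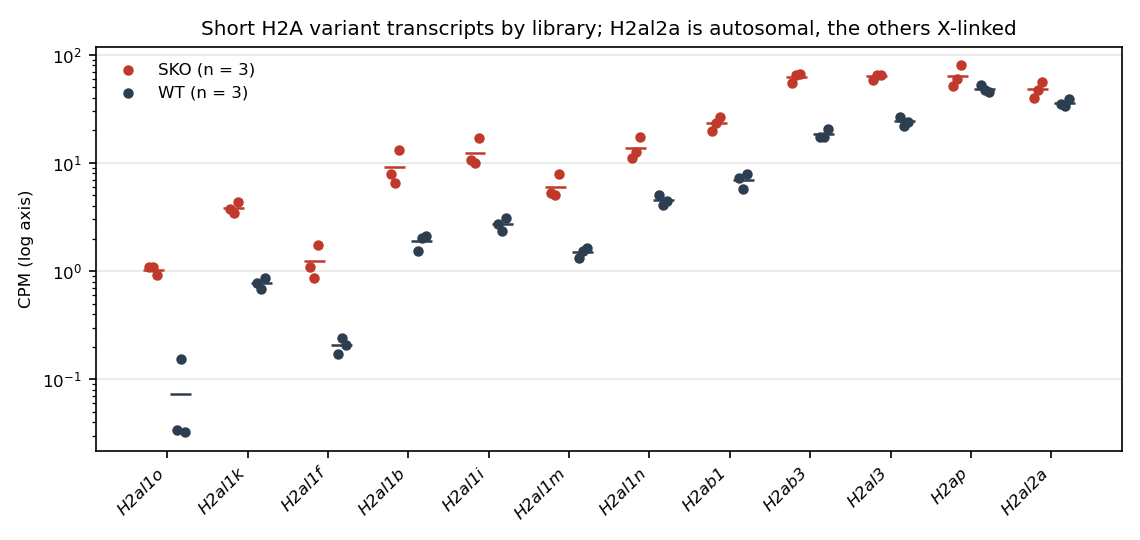
Level of 12 short H2A variant transcripts in CPM (vertical log axis) by library, with the 3 SKO libraries (red) left of the 3 WT libraries (dark) and bars at the means. The groups of H2ap overlap, those of H2al2a lie close together, and those of the other 10 genes are well apart.

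The autosomal gene of the same kind, H2al2a, differed less. H2al2a, at chr2:17996417-17996958 (minus strand), encodes H2A.L.2, the variant known to open nucleosomes to transition proteins. It had 39.8, 47.6 and 56.6 CPM in SKO, against 35.4, 33.7 and 39.0 CPM in WT, with groups barely apart, and was not called (log2 fold change 0.41 ± 0.16, edgeR adjusted p = 0.0671). It passed the threshold without SKO replicate 1 (edgeR adjusted p = 0.0347) and, with all libraries, under a filter of 5 CPM in 3 libraries (edgeR adjusted p = 0.0478). The log2 ratio of H2al1n to H2al2a was -1.82 ± 0.11 in SKO and -3.0 ± 0.18 in WT (SD, n = 3 each), a difference of 1.18. That of H2al3 to H2al2a was 0.41 ± 0.19 in SKO and -0.57 ± 0.16 in WT, a difference of 0.98. In an exact two-sided permutation test both gave p = 0.1, the smallest that 3 against 3 libraries allow, and both ratios were chosen after the values were seen. H2ap, an X-linked gene for a further short H2A, had 51.0, 60.1 and 80.0 CPM in SKO, against 52.8, 47.3 and 45.2 CPM in WT, with overlapping groups (log2 fold change 0.40 ± 0.18, edgeR adjusted p = 0.104). It passed the threshold without SKO replicate 1 (edgeR adjusted p = 0.0475).

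The promoters of H2al1n and H2al2a, shown because their transcripts differed in fold change, share most of their letters. Over the 250 bases before to 50 after each start in RefSeq (GRCm38.p6), a local alignment matched 228 of 272 columns, or 83.8%. Capitals mark the letters that match in that alignment. H2al1n spans chrX:14210898-14211197 (plus strand) and H2al2a chr2:17996909-17997208 (minus strand).
H2al1n: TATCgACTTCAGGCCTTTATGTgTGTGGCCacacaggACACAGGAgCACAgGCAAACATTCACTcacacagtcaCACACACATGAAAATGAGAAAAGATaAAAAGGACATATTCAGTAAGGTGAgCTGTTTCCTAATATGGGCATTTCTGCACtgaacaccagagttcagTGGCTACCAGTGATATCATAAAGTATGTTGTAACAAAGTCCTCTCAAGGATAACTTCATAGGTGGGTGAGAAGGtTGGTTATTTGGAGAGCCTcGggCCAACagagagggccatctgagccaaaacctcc
H2al2a: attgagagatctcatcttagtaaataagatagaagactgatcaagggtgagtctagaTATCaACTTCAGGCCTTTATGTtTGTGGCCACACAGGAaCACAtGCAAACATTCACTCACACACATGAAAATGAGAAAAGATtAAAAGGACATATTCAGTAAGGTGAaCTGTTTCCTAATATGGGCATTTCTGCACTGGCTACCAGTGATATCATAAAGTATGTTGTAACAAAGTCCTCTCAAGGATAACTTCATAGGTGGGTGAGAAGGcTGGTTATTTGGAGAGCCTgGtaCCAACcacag
The promoters of the other H2al1 copies matched that of H2al2a at 80.9% to 86.2% of their aligned columns.

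Of the H2A members of general use, H2aw was called and H2az1, H2az2, H2ax and H2aj were not. Of the macroH2A genes, left out by the naming rule, Macroh2a1 and Macroh2a2 were lower in SKO (edgeR adjusted p = 0.000579 and 0.00721). H2az1, which encodes the H2A.Z that marks promoters, had 376, 450 and 451 CPM in SKO, against 348, 312 and 380 CPM in WT (log2 fold change 0.29 ± 0.13, edgeR adjusted p = 0.104). The groups overlapped, and H2az1 made up 50.9% to 55.4% of the counts of the H2A members in SKO and 62.7% to 65.1% in WT. Only 41.2% of the 100-base words of H2az1 occur in no other gene. The second H2A.Z gene, H2az2, and H2ax, whose product is phosphorylated at DNA breaks and on the meiotic sex chromosomes, were not called, with log2 fold changes of 0.43 ± 0.18 and -0.19 ± 0.16. H2aw, on chromosome 11, had 11.8, 11.2 and 13.8 CPM in SKO, against 3.00, 2.23 and 3.01 CPM in WT (log2 fold change 2.16 ± 0.20, edgeR adjusted p = 7.09e-05). Its neighbour H2bu1-ps, an H2B pseudogene that starts 172 bases away on the opposite strand, had 0, 1 and 0 counts in SKO, against 16, 25 and 13 counts in WT (edgeR adjusted p = 0.00498). A count of 0 allows up to 0.062 CPM in SKO replicate 1 and 0.0594 CPM in SKO replicate 3. The pair was called in opposite directions.

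The bases around these starts are shown because they cover the stretch between both genes. In the sequence of H2aw at chr11:58954435-58954734 (plus strand, RefSeq, GRCm38.p6), capitals mark CCAAT on either strand, which occurs in 37.41% of 32851 promoter windows of the same length.
H2aw: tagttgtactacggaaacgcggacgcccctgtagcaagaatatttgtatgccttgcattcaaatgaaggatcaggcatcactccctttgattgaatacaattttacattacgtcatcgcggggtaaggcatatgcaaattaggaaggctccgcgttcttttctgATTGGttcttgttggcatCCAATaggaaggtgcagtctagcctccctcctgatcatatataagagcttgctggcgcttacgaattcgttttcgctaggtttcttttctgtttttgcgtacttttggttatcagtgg

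The H2B variants other than H2bu1-ps were not called. H2bl1, at chr13:98984085-98984565 (minus strand), had 114, 123 and 128 CPM in SKO, against 109, 86.0 and 107 CPM in WT, and held 90.3% to 92.6% of the counts of the H2B members in SKO and 91.8% to 93.5% in WT. Its groups were barely apart and it was not called (log2 fold change 0.27 ± 0.14, edgeR adjusted p = 0.148, -0.03 once transcript length and GC content were corrected for). X-linked H2bfm stayed near 1 CPM in both groups and was not called (0.21 ± 0.36).

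H3.3, the H3 variant that nucleosomes take up without replication, is made from H3f3a and H3f3b, and both were higher in SKO. H3f3a, within chr1:180800832-180813943 (minus strand), had 1434, 1622 and 1515 CPM in SKO, against 888, 818 and 958 CPM in WT (log2 fold change 0.78 ± 0.12, edgeR adjusted p = 0.000885). H3f3b, within chr11:116021912-116027962 (minus strand), had 751, 884 and 1123 CPM in SKO, against 434, 337 and 451 CPM in WT (log2 fold change 1.18 ± 0.18, edgeR adjusted p = 0.000746). No SKO library overlapped a WT library for either gene, and together they summed to 2443 ± 233 CPM in SKO and 1295 ± 129 CPM in WT (SD, n = 3 each). H3f3b made up 33.4% to 41.6% of H3 counts in SKO and 28.3% to 31.9% in WT.

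Of the smaller rows under H3 symbols, 3 were called higher, among them the pseudogene H3f3a-ps1, and 1 lower, the antisense H3f3aos. H3f3c and H3f3a-ps1, copies that share 100-base words with other genes, had log2 fold changes of 1.03 ± 0.18 and 0.95 ± 0.17 (edgeR adjusted p = 0.00152 and 0.00189), both higher in SKO. H3f3a-ps2 was not called (0.42 ± 0.23). H3f4, one of the testis types, is annotated as a pseudogene in GENCODE and as a coding gene in RefSeq. It had 9.73, 11.2 and 11.3 CPM in SKO, against 7.65, 5.49 and 8.29 CPM in WT (log2 fold change 0.59 ± 0.20, edgeR adjusted p = 0.036). That call was lost without SKO replicate 2, SKO replicate 3, WT replicate 1 or WT replicate 2 (edgeR adjusted p 0.0542 to 0.125), under library totals and after the length and GC correction. H3f3aos, annotated antisense to the start of H3f3a with 168 bases of overlap, had 1.24, 1.21 and 2.12 CPM in SKO, against 4.21, 4.48 and 4.52 CPM in WT (log2 fold change -1.53 ± 0.28, edgeR adjusted p = 0.00201). The strand setting of the counting is not given, and reads where the genes overlap could belong to either. H4f16, the only H4 gene among the variants, was under 1 CPM in every library and was not called.

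The replication-dependent members were mostly low in this polyadenylated RNA. All 26 summed to 97.8, 105 and 134 CPM in SKO, against 62.7, 58.6 and 68.7 CPM in WT, 1.77-fold by the means, and H4c1 alone gave 62.8% to 66.0% of that in SKO and 61.9% to 63.9% in WT. Without H4c1 the sum was 39.8 ± 5.43 CPM in SKO and 23.4 ± 1.25 CPM in WT (SD, n = 3 each). One left-out row, Hist1h2bp, an H2B gene of the chromosome 13 cluster, exceeded the sum of all 26 in every library, with 229, 253 and 346 CPM in SKO, against 121, 115 and 130 CPM in WT. Its groups were apart (log2 fold change 1.18 ± 0.17, edgeR adjusted p = 0.000552), and with the left-out rows the sum came to 390 ± 82 CPM in SKO and 186 ± 12.9 CPM in WT. By edgeR 4 of the 16 members tested were higher, beside 21.2% of all genes and 49.3% of short autosomal coding genes that are not histone members. By the same test 0 were lower, also at an unadjusted p under 0.05, by DESeq2 and by limma-voom. Without SKO replicate 3 the median log2 fold change was 0.39, against 0.60 with all libraries, and H2bc21 was then called lower (edgeR adjusted p = 0.0191).

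The called genes were 1 H2B, 2 H3 and 1 H4 gene. H4c1 had 63.0, 65.6 and 88.4 CPM in SKO, against 39.5, 36.3 and 43.9 CPM in WT (log2 fold change 0.86 ± 0.17, edgeR adjusted p = 0.003). H3c1 had 13.2, 14.7 and 17 CPM in SKO, against 5.59, 6.09 and 5.99 CPM in WT (log2 fold change 1.34 ± 0.17, edgeR adjusted p = 0.000296). H2bc4 had 2.25, 2.24 and 3.15 CPM in SKO, against 0.221, 0.102 and 0.160 CPM in WT (log2 fold change 3.96 ± 0.41, edgeR adjusted p = 0.000104). These groups did not overlap for any of the 3 genes. H3c15 had 5.14, 3.51 and 5.37 CPM in SKO, against 2.54, 1.89 and 2.66 CPM in WT (log2 fold change 0.98 ± 0.26, edgeR adjusted p = 0.0126), and its call was lost without WT replicate 2 (edgeR adjusted p = 0.0549). Only 38.4% of the 100-base words of H3c15 occur in no other gene, so part of its reads may belong to other genes. H4c1, H3c1 and the linker gene H1f1 are direct neighbours among the members on chromosome 13, with 622 and 1279 bases between them, and all 3 were called higher. Of the members in this cluster, 5 of 17 tested were called, all higher, beside 21.2% of all genes and 49.3% of short autosomal coding genes that are not histone members. The rows left out under Hist1h symbols, of which Hist1h2bp was called higher, are not in that count.

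The testis types of this class were not called. H2bc1 and H2ac1, the divergent pair that encodes the testis H2B and H2A of spermatocytes and spermatids, lie 305 bases apart. H2bc1 had 0.826, 1.26 and 1.13 CPM in SKO, against 0.971, 1.06 and 0.465 CPM in WT (log2 fold change 0.37 ± 0.43). H2ac1 had 0.207, 0.315 and 0.218 CPM in SKO, against 0.0341, 0.256 and 0.192 CPM in WT (0.61 ± 0.79). Both pairs of groups overlapped. Per kilobase, the highest of the other replication-dependent H2A and H2B members, H2ac11 and H2bc11, gave -0.04 ± 0.35 and 0.58 ± 0.34, and neither was called.

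The 3′ ends are shown because the assay reads polyadenylated RNA and these transcripts usually lack a tail. The histone stem-loop pattern, a fixed stem and loop with 4 free positions, searched on the transcript strand of GENCODE M21 models, was present in 15 of 26 replication-dependent genes, 7 of 43 variants and 0.114% of 21889 other coding genes. Of the 25 genes behind that share, 22 are histone genes under Hist names. The poly(A) signal AATAAA in the last 50 bases was present in 2 of 26 replication-dependent genes (H4c1 and H2bc21), 14 of 43 variants and 69.6% of the other coding genes. RefSeq ends H4c1 sooner (chr13:23760795-23761249, minus strand), before that AATAAA, so the signal of H4c1 depends on the annotation. H4c1 lacks the exact stem-loop pattern and has it with 1 substitution, T8C (the pattern's base, its position from 1 at the pattern's 5′ end, then the transcript's base). In 6 replication-dependent models the annotation stops at the stop codon, so no 3′ end could be searched. The same holds for variant models, among them H2al1c, H2al1d, H2al1f, H2al1i, H2ab1 and H2ab3. Capitals mark the stem-loop or the AATAAA, in transcript sense.
H4c1 stem-loop with T8C: ccaaaGGCCCTTCTCAGGGCCgccca
H4c1 poly(A) signal: ttgagtaAATAAAccttgagtgcctttgga
H3c1 stem-loop: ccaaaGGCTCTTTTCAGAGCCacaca
H3c15 stem-loop: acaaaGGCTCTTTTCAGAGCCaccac
H2aw stem-loop: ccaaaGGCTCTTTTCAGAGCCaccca
H2aw poly(A) signal: tatgcccAATAAAataagagtacgtgtata
Hils1 poly(A) signal: aagtgggAATAAAacgcaacttatttcaca
In H3c1 the GENCODE model ends 37 bases after the stem-loop, and in H3c15 377 bases after it. H2aw, a variant by the letter rule, carries both elements in its GENCODE model, with 1643 bases of transcript after its stem-loop. RefSeq ends H2aw sooner (chr11:58954685-58955192), before that AATAAA. It also ends H3c1 and H3c15 sooner (chr13:23761885-23762386 and chr3:96238479-96239127).

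The promoter of H4c1 is shown as that of the most abundant replication-dependent member. At chr13:23761200-23761499 (minus strand, RefSeq, GRCm38.p6) it holds TGACGTCA, the cAMP response element, 2 times and TATAAA 1 time, in capitals. That TATAAA lies near the end of the window, among the 50 bases after the RefSeq start.
H4c1: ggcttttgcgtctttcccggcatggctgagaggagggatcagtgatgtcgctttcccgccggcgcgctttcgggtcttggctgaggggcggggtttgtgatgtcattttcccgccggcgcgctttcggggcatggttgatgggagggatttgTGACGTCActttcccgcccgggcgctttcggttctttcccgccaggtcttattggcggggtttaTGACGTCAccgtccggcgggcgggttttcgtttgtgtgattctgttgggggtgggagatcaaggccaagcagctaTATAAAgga
Searched on both strands, TGACGTCA was found in 4 of 22 replication-dependent promoters with a RefSeq window (H4c1, H4c8, H2ac11 and H2bc11), in 0 of 37 variant promoters and in 1.79% of all windows. TATAAA was found in 13 of 22 replication-dependent promoters, 7 of 37 variant promoters and 13.62% of all windows. Of the 4 genes with TGACGTCA only H4c1 was called. H2ac11 and H2bc11 are a divergent pair, 269 bases apart, whose windows overlap, so 1 match can count for both. A match describes letters in the window and is no measure of binding.

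Fold changes of histone genes are to be read beside those of genes of like length and chromosome. Of the autosomal coding genes that are not histone members, the shortest eighth (114 to 1192 bases) had 49.3% higher and 8.79% lower and a median log2 fold change of 0.59, and the other eighths had medians of -0.27 to 0.13. Of the 16 replication-dependent genes tested, 13 fall in that length range, with 4 higher and a median of 0.86, which a length and GC correction lowered to 0.41. The 11 autosomal variants in that range had 5 higher and 2 lower and a median of 0.42, and the 12 longer ones had 4 higher and 1 lower and a median of 0.27. Lengths are those of the GENCODE models. RefSeq gives some of the longer members spans inside the shortest range, among them H2aw, which was called higher, H4f16, H1f3, H2bc9 and H3c7. The split was not repeated with RefSeq lengths. Of longer autosomal coding genes that are not histone members, 15.6% were higher and 25.3% lower. No difference between the histone genes and these backgrounds was tested.

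X-linked histone genes are read in the same way. Of 16 tested, 12 were higher, with a median log2 fold change of 1.74, and 0 were lower by edgeR, by DESeq2, by limma-voom and at an unadjusted p under 0.05. Of 724 X-linked genes that are not histone members, 63.1% were higher and 1.8% lower, and their median was 1.29. All 16 fall in the shortest length range, and the length and GC correction lowered their median to 1.29. The median of the other X-linked genes is without that correction and over all lengths, so these 2 medians are not like measures. The parts of length and of the X chromosome in these values were not tested.

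**Figure D4:**
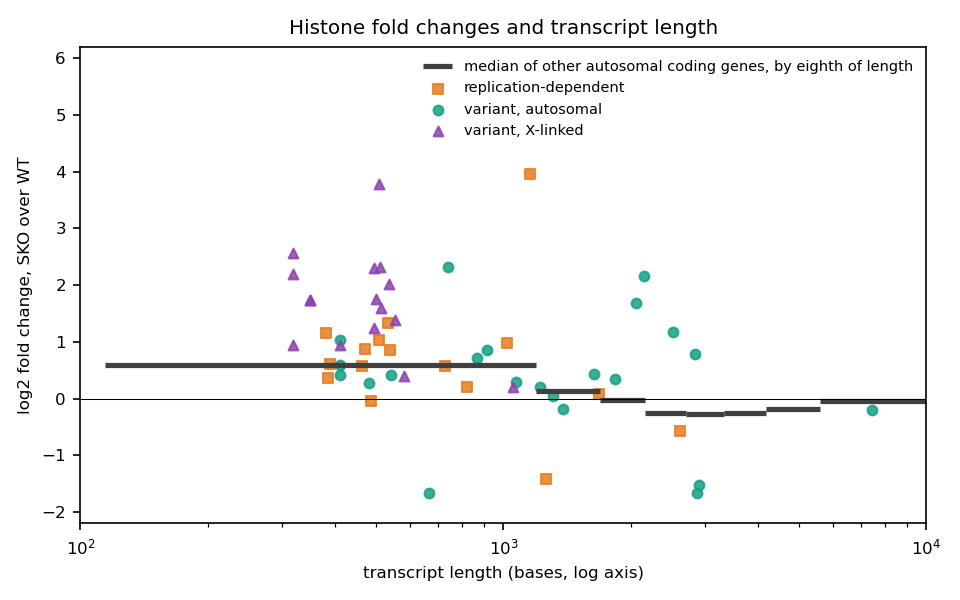
Log2 fold change, SKO over WT (vertical axis), against transcript length in bases (horizontal log axis) for the tested histone genes other than H2bu1-ps, with bars for the median of other autosomal coding genes in each eighth of length. The shortest eighth has a median of 0.59, and 12 of 16 X-linked histone genes, with a median of 1.74, are called higher.

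Genes that process, carry and use histones were called in both directions, and the shares are to be read beside the 21.2% higher and 20.9% lower of all genes. Of 32 tested genes of histone pre-mRNA 3′ processing, 12 were higher and 4 lower, with a median log2 fold change of 0.09. Snrpe and Snrpg, which encode Sm proteins of the spliceosome and of the U7 particle, rose by 1.59 ± 0.20 and 1.19 ± 0.18, and Pcf11, a cleavage factor gene, by 1.17 ± 0.17. Ints3 and Zfp473, which encodes a partner of U7, fell by 2.13 ± 0.31 and 1.83 ± 0.36, and the endonuclease gene Cpsf3 fell by 0.64 ± 0.17. Higher calls came to 7 without WT replicate 3, and lower calls to 8 without SKO replicate 3 and to 2 without WT replicate 1 or WT replicate 2. Library totals alone gave 7 higher and 7 lower.

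Histone chaperones had 8 of 39 higher and 5 lower, beside 21.2% and 20.9% of all genes, with a median of 0.03. X-linked Rbbp7, a subunit of several histone-binding complexes, had 25.1, 36.8 and 28.7 CPM in SKO, against 1.91, 3.15 and 3.29 CPM in WT (log2 fold change 3.44 ± 0.25, edgeR adjusted p = 2.24e-05). Npm1 and Asf1a, which hands H3-H4 to other chaperones, rose by 1.01 ± 0.12 and 0.81 ± 0.14. Chaf1a, a subunit of the assembly factor of replicating DNA, and Asf1b fell by 1.74 ± 0.26 and 0.97 ± 0.20, and Daxx, an H3.3 chaperone gene, fell by 1.00 ± 0.21. Lower calls came to 9 without SKO replicate 3, to 3 without WT replicate 1 or WT replicate 3, and to 10 under library totals alone.

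S phase and replication genes had 9 of 42 higher and 9 lower, close to the 21.2% and 20.9% of all genes, with a median of -0.11. Slbp, which encodes the protein that binds the histone stem-loop, had 224, 253 and 246 CPM in SKO, against 159, 143 and 161 CPM in WT (log2 fold change 0.64 ± 0.12, edgeR adjusted p = 0.00261). The replication factor genes Rfc3 and Orc6 rose by 0.87 ± 0.13 and 0.83 ± 0.15. Pole, Mcm7 and Cdc6, which encode a polymerase subunit, a helicase subunit and its loader, fell by 2.48 ± 0.21, 1.67 ± 0.16 and 1.62 ± 0.23. Higher calls came to 3 under library totals alone.

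Markers of other cells were summed per library. Their counts called are to be read beside the 21.2% higher and 20.9% lower of all genes. The 14 Sertoli cell markers tested summed to 105 to 260 CPM in SKO and 24.5 to 31.4 CPM in WT, with 11 higher. Those for peritubular and endothelial cells summed to 57.0 to 73.7 CPM in SKO and 13.6 to 32.2 CPM in WT, a sum led by Dcn, which was not called, and Acta2. Of these 7, 1 was higher and 1 lower, with a median log2 fold change of 0.12. Those for macrophages and blood summed to 31.9 to 50.3 CPM in SKO and 10.8 to 24.6 CPM in WT, with 3 of 10 higher and 1 lower. Leydig markers summed to 35.8 to 85 CPM in SKO and 36.9 to 62.3 CPM in WT, with 5 of 9 higher and 1 lower and a median log2 fold change of 1.85. The lower marker, Scarb1, had 10.3 ± 2.95 CPM in SKO and 30.0 ± 2.36 CPM in WT, the largest part of the WT sum. Spermatogonial markers summed to 601 to 832 CPM in SKO and 928 to 1015 CPM in WT, with 1 of 12 higher and 4 lower. No marker counted was at 0 in all libraries, and 4 Sertoli markers, Amhr2, Dhh, Trf and Gata1, averaged under 1 CPM. Other listed markers, among them Sox9, Wt1 and Pecam1, were not analysed here. H1f0, H1f1 and H2bc4, histone genes at low levels in WT, moved in the same direction as the Sertoli sum, and its part in their values was not tested. Spermatocyte markers summed to 16367 to 17233 CPM in SKO and 11302 to 11620 CPM in WT, a sum led by Ldhc (11859 ± 785 CPM in SKO and 7287 ± 95.7 CPM in WT), with 5 of 20 higher and 3 lower. Elongating spermatid markers summed to 15554 to 16669 CPM in SKO and 10429 to 11098 CPM in WT, with 10 of 21 higher and 2 lower.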

How the data were processed

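Raw counts of each gene were deposited by the authors, 1 column per library, and were joined to the labels through genotype and replicate number. Per the submitters' processing notes, the tools were featureCounts 1.5.0-p3, HISAT2 2.0.5 and Trim Galore 0.6.4, with GRCm38 (mm10). How multi-mapping reads and strand were handled, and which annotation was counted, is not given in the sources used here, so antisense genes and near-identical histone copies can share reads. Per the labels, reads were pairs of 150 bases.

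edgeR 4.0.16 (R 4.3.3) was run on all 22770 rows with filterByExpr at its defaults, TMM factors and the quasi-likelihood test, two-sided, on the group alone, with Benjamini-Hochberg adjustment over the 19776 genes tested. A fold change is SKO over WT and its SE is its size divided by the square root of F. A count of 3 corresponded to 0.0481 to 0.062 CPM across the libraries, and floors cover counting error only because PCR copies are not independent molecules. Within a group, replicates differed by more than sampling noise, and all 6 libraries were kept. The procedure was tested on simulated counts.

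Rows were matched to GENCODE M21 (GRCm38) by name (22023), by RefSeq accession (243) or by synonym at the same place (50), and 454 were unmatched. Promoters came from RefSeq (GRCm38.p6), with 59 of the 69 members matched. The named members were those called, those at 50 CPM or more in a group, testis types and the top of each class. Up to 3 genes in each direction were named per pathway list. The members, lists and tests were chosen with earlier results of these data known. Alternatives were DESeq2 1.42.0, upper quartile factors, its size factors, library totals, no filter, 5 CPM in 3 libraries, limma-voom (limma 3.58.1), a length and GC correction, a replicate block, H1f1 to H1f5 counted as replication-dependent, stricter thresholds, each library left out and, added after seeing the data, the 7 histone rows that the symbol rule leaves out.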

Additional observations from a re-analysis of the deposited data

How the results depend on the processing

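Of the 28 called histone genes, 22 kept their call, at an adjusted p under 0.05, under every other tool, scaling, filter, correction or left-out library that tested them. The 6 others (H3c15, H3f4, H1f6, H1f1, H1f11-ps and H2al1a) lost it under 1 to 10 of these. A filter of 5 CPM in 3 libraries tests fewer genes and left 16 members higher and 0 lower, with 2 replication-dependent genes higher, 0 variants lower and 2742 genes of all lower. At an adjusted p under 0.01, members came to 20 higher and 2 lower, all genes to 2611 higher and 2553 lower, with S phase genes 5 higher, chaperones 3 lower and 3′ processing genes 7 higher and 2 lower. With at least 2-fold required, members came to 18 higher and 3 lower, all genes to 2321 higher and 2562 lower, with replication-dependent genes 2 higher, S phase genes 1 higher, chaperones 2 higher and 2 lower, and 3′ processing genes 5 higher and 2 lower. Library totals alone gave S phase genes 3 higher, chaperones 5 higher and 10 lower, 3′ processing genes 7 higher and 7 lower, a variant median of 0.63, and log2 ratios of the summed CPM of 0.40 for linker, 0.32 for H2A, 0.05 for H2B and 0.68 for H3 genes. The variant median was 0.70 after the length and GC correction and 0.95 with no filter, and the replication-dependent median was 0.24 after that correction and 0.37 under library totals. Adding the 7 histone rows that the naming rule leaves out, a choice made after seeing the data, gave 26 members higher and 5 lower, variants 5 lower with a median of 0.75, and log2 ratios of the summed CPM of 0.83 for H2B and 1.07 for replication-dependent genes. The sign turned for H2bc1 (-0.11) and H2bl1 (-0.03) under the length and GC correction, and for H1f7 (-0.19) under library totals. With 1 library left out, H1f7 ran from -0.15 to 0.11 and H2ac11 from -0.21 to 0.10, neither called. The cause was not tested.

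With each library left out in turn, all genes gave 3064 to 4329 higher and 3025 to 4766 lower, members 20 to 25 higher and 2 to 3 lower, replication-dependent genes 3 to 4 higher and 0 to 1 lower, and variants 17 to 21 higher and 2 lower. Medians ran from 0.39 to 0.85 for replication-dependent genes and from 0.71 to 0.97 for variants. S phase genes gave 6 to 9 higher and 7 to 10 lower, chaperones 7 to 9 higher and 3 to 9 lower, and 3′ processing genes 7 to 11 higher and 2 to 8 lower. Same-numbered SKO and WT libraries did not deviate together (correlations -0.022, -0.051 and -0.065), and the main fit paired none. These correlations cannot tell whether same-numbered libraries were handled together. A fit with the replicate block gave 3552 higher and 3666 lower genes, with members at 22 higher and 2 lower. The 14 members below the filter were not tested.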
